A study of Mus musculus with 8 samples.

Results

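The genes described are 9 that handle cholesterol and lipoproteins, Ch25h, Nr1h3, Nr1h2, Srebf2, Abca1, Abcg1, Apoe, Lpl and Plin2. Their accessible chromatin was measured by ATAC-seq, in which a transposase cuts open DNA and inserts sequencing adapters, in microglia sorted from mouse cortex. Every peak that the deposited table assigned to one of these genes by nearest start site was taken, which gave 112 peaks of 104981 and 9 genes of 18207. This pairing is by distance alone, and a peak may act on another gene. Microglia came from mice 30 days old that had received interleukin-33 (IL-33), a cytokine released by other brain cells, or vehicle into 1 cerebral ventricle 4 h before collection. There were 4 IL-33 libraries and 4 vehicle libraries, each from a separate mouse according to the labels, with 2 female mice and 2 male mice per group. The table's columns named the treatment and a number but not the mouse, so sex was not used. Strain and dose are not given in the sources used here. These were bulk libraries, so more cells with an open site and a more open site in each cell cannot be told apart.

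Microglia take up cholesterol from myelin debris, dying cells and lipoproteins, and cannot break down the sterol ring, so surplus is exported, esterified or oxidised. Ch25h encodes cholesterol 25-hydroxylase, an interferon- and Toll-like-receptor-inducible enzyme whose product, 25-hydroxycholesterol, holds back SREBP processing and activates the liver X receptors. Nr1h3 and Nr1h2 encode these receptors, LXR alpha and LXR beta, which with RXR partners switch on Abca1, Abcg1, Apoe and Lpl. Srebf2 encodes SREBP2, which drives cholesterol synthesis and uptake. ABCA1 and ABCG1 load cellular cholesterol onto acceptor particles such as those built on apolipoprotein E, lipoprotein lipase cuts triglyceride from lipoproteins, and perilipin 2 coats lipid droplets.

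Values are HOMER tags per 10000000 tags in the library, and library totals ran from 35842688 to 43857673 tags. IL-33 library 2 stood apart: 14.2% of its tags lay in peaks, against 22.0% to 31.3% in the other 3 IL-33 libraries and 20.8% to 27.9% in the vehicle libraries. Deposited values were tested as they stand, and counts are also given without that library and after scaling each library to the typical peak (median-ratio scaling). Promoter peaks were present for 7 of 8 microglial marker genes (Csf1r had none), with 302 to 635 summed tags in IL-33 libraries and 426 to 616 in vehicle libraries. No promoter peak was assigned to any of 3 monocyte or 3 T-cell markers. Mrc1, the 1 of 3 border-macrophage markers with a promoter peak, had 23.6 to 54.0 tags in IL-33 libraries and 30.6 to 51.0 in vehicle libraries. S100a8, the 1 of 4 neutrophil markers with one, had 2.59 to 7.78 tags in IL-33 libraries and 2.11 to 6.50 in vehicle libraries. The ranges of the astrocyte (2 of 5 markers), oligodendrocyte (1 of 4), neuron (1 of 5) and endothelial (2 of 4) lists also overlapped between treatments, and the part of other cells in the results was not tested.

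Start-site sequences are shown for the enzyme whose promoter responded and for 3 regulators or exporters whose promoters did not pass the test. Each run is the 250 bases before the start site in the RefSeq promoter table (GRCm38.p6), 5′ to 3′ on the gene's strand. Of the 9 genes, 7 had an entry. Capitals mark a match to GGGANNNNCC, an NF-kB-type motif.
Ch25h, chr19:34475149-34475398, minus strand: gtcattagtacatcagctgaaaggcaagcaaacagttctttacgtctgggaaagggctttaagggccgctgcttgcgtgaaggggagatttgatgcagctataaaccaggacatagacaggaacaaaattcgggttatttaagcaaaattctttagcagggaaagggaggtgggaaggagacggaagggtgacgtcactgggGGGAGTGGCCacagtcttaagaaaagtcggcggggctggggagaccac
Nr1h2, chr7:44553966-44554215, minus strand: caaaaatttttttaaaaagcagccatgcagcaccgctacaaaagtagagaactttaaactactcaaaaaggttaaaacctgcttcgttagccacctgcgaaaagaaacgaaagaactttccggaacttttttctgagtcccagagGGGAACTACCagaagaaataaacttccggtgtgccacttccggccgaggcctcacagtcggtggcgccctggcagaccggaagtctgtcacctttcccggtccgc
Abca1, chr4:53159896-53160145, minus strand: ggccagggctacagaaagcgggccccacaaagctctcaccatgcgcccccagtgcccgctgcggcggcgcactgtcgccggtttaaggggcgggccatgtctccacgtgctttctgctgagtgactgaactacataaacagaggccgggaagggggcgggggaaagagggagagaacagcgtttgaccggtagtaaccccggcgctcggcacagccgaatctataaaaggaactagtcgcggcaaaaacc
Srebf2, chr15:82147019-82147268, plus strand: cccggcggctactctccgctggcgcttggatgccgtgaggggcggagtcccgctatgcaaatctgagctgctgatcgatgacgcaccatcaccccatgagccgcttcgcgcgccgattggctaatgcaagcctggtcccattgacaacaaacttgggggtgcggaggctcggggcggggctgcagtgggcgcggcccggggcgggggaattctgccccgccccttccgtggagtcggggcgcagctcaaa
Both strands were searched for 5 motifs with exact letters. GGGANNNNCC stood in 17.6% of the 32851 promoter windows in the table, TGANTCA (AP-1) in 6.75%, GAGGAAGT (PU.1) in 2.44%, TCACNCCAC (a sterol regulatory element) in 1.05% and AGGNCANNNNAGGNCA (the LXR repeat) in 0.213%. Among the 7 entries the matches were GGGAGTGGCC in Ch25h, 48 to 39 bases before the start, and GGGAACTACC in Nr1h2, 105 to 96 bases before it. A match describes letters and is not evidence of a bound site. Exact letters miss variants of a motif, so a window without a match may still hold a site. The Ch25h window held 50.4% G and C with 8 CpG, near the median of all windows (52.4% and 6 CpG), whereas the Srebf2 window held 67.6% with 25 CpG and the Abca1 window 61.6% with 20.

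Of the 112 peaks, 102 passed the filter on low tags and were tested, 15 rose with IL-33, 2 fell and 85 did not pass (limma across 94480 peaks, Benjamini-Hochberg adjusted p under 0.05). Over all tested peaks, 8.53% rose and 4.99% fell. The risen peaks were 9 of 17 tested at Ch25h, 3 of 34 at Abca1, 2 of 9 at Lpl and 1 of 6 at Plin2, and both fallen peaks were at Abcg1 (2 of 21). No tested peak passed in either direction in limma as deposited at Apoe (5), Nr1h2 (3), Nr1h3 (2) or Srebf2 (5). Of these 15, 2 had an unadjusted p under 0.05, and after median-ratio scaling limma passed 3 rises and no falls (15.3% and 10.8% of all tested peaks). For the same peaks edgeR on recovered reads passed 0 with library totals and 4 rises with TMM scaling. Over all 94480 tested peaks edgeR passed 8256 rises and 3483 falls with library totals, and 16138 rises and 11145 falls with TMM. Over the 102 tested peaks the unadjusted p was under 0.05 for 30. That share over all tested peaks is not given here, so neither count of unadjusted p can be set against a background. In 15 of the 102 tested peaks all IL-33 libraries lay above all vehicle libraries and in 3 all lay below, orderings seen in 8.06% and 5.89% of all tested peaks.

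Most risen peaks had low levels in vehicle microglia. Their means were 7.12 to 55.0 tags in IL-33 libraries (median 25.2) and 1.75 to 10.9 tags in vehicle libraries (median 4.99). The vehicle median over all 104981 peaks, tested or not, was 11.3. The authors listed 8 of the 15 as peaks in the IL-33 list only and 7 in both lists. By position, 11 were intergenic, 3 lay in Abca1 introns and 1 was a promoter. That promoter was 1 of 9 promoter peaks (2.45% of all tested promoter peaks rose and 1.28% fell), and the remaining 14 were among 93 tested peaks outside promoters, where 9.7% of all such peaks rose and 5.7% fell. The other 8 promoter peaks of these genes had log2 changes from -0.58 to 0.40. The median log2 change was 0.19 over the 102 tested peaks, beside -0.14 over all tested peaks. Changes above 0 were seen in 15 of 17 tested Ch25h peaks (median 1.26), 24 of 34 at Abca1 (median 0.22) and 5 of 21 at Abcg1 (median -0.20). The 85 tested peaks that did not pass had log2 changes from -0.82 to 0.90, and the 10 peaks left out as too low averaged 3.12 to 5.16 tags with IL-33 and 1.21 to 4.24 with vehicle.

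**Figure D1:**
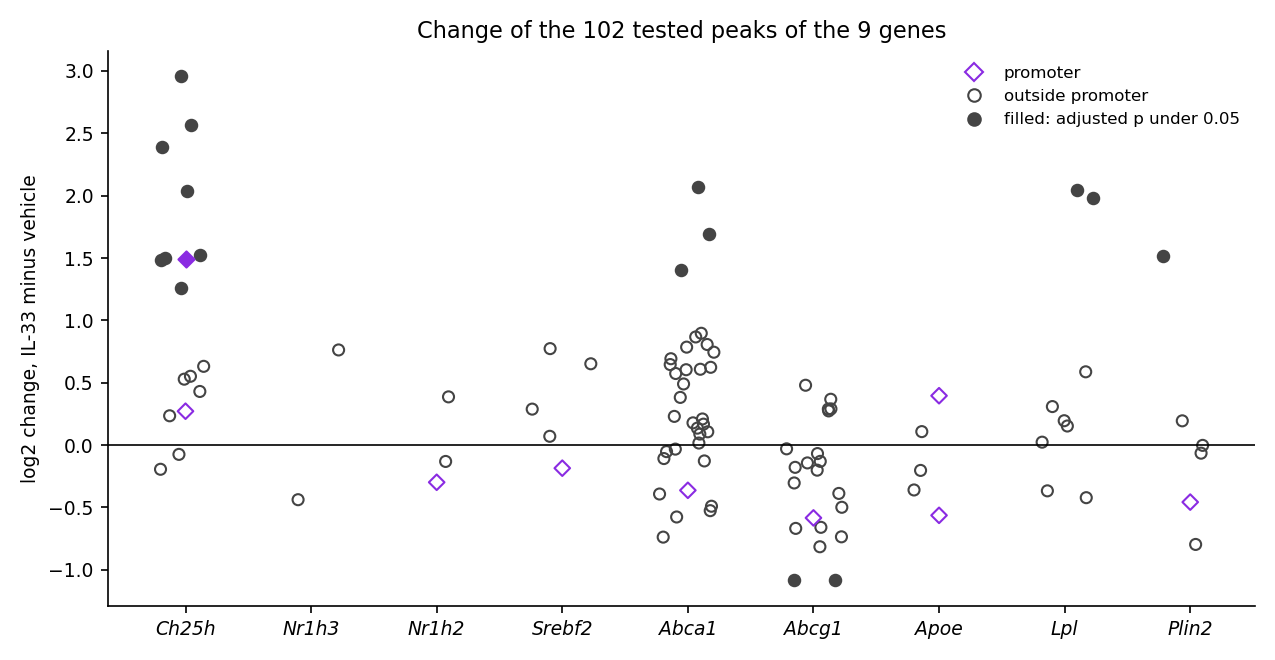
Log2 change, IL-33 minus vehicle, of each of the 102 tested peaks by gene. Diamonds are promoter peaks, circles are peaks outside promoters and filled symbols have an adjusted p under 0.05 (limma). The 15 filled symbols above 0 lie at Ch25h, Abca1, Lpl and Plin2, and the 2 below 0 at Abcg1.

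All 15 risen and both fallen peaks also passed after median-ratio scaling, where 34 rose and 9 fell (15.3% and 10.8% of all tested peaks). Without IL-33 library 2 the 15 also passed, and 28 rose and 2 fell (14.3% and 4.33% of all tested peaks).

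Ch25h had the most risen peaks and the largest single rise of the 9 genes. It is a single-exon gene on chromosome 19, and its peaks ran from -25.8 kb, inside the neighbouring gene Lipa (lysosomal acid lipase), to 85.0 kb downstream, toward Fas, whose nearer end lay 146 kb away. The peak at the start site (chr19:34475052-34475310, -46 bases, overlapping 162 bases of the sequence printed above, whose start lies 13 bases from the one used by HOMER) had 40.5, 8.49, 20.9 and 30.8 tags in IL-33 libraries, against 7.8, 6.34, 6.04 and 8.23 in vehicle libraries. The groups did not overlap, although IL-33 library 2 lay just above the highest vehicle library. The log2 change was 1.49 (95% interval 0.83 to 2.15, limma adjusted p = 0.000225), a 3.55-fold ratio of means. A second promoter peak at -584 bases had means of 14.8 ± 5.18 tags with IL-33 and 11.5 ± 0.796 with vehicle (SD, n = 4 each) and did not pass (limma adjusted p = 0.711).

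The changes were larger far downstream. At 53.8 kb (chr19:34421238-34421475) the peak had 70.4, 27.9, 48.2 and 73.5 tags in IL-33 libraries, against 6.91, 3.96, 5.93 and 6 in vehicle libraries. Its log2 change of 2.96 (2.30 to 3.62, limma adjusted p = 5.55e-16) was the largest among the 102 tested peaks, a 9.65-fold ratio of means. The peak beside it at 54.6 kb (chr19:34420340-34420686) had 47.2, 13.4, 25.5 and 48.9 tags with IL-33 and 5.37, 4.76, 2.28 and 4.6 with vehicle, a log2 change of 2.57 (limma adjusted p = 4.19e-12). In both, every IL-33 library, the poorest included, exceeded every vehicle library.

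A nearer group of 4 peaks between 26.9 and 39.6 kb also rose. The peak at 30.2 kb (chr19:34444809-34445086) had 13.6, 8.02, 15.3 and 22.2 tags with IL-33, against 2.3, 1.72, 1.6 and 1.39 with vehicle. Its vehicle mean of 1.75 tags was the lowest of the 15 risen peaks, and it rose by 2.39 on the log2 scale (limma adjusted p = 1.63e-10). The peaks at 26.9, 29.3 and 39.6 kb rose by 1.5, 1.53 and 2.04 on the log2 scale, each with no overlap between groups. At 2.58 and 3.15 kb the rises were 1.49 and 1.26, with overlapping groups. The second of these rested on vehicle library 2, which held 0.26 tags, under the floor of 3 reads (0.342 to 0.418 tags), and without that library its adjusted p was 0.183 (limma). It also missed the threshold with a 5 times larger pseudocount and after quantile normalization.

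The rise was not shared by every peak of the locus. The most open one by mean over the 8 libraries, in a Lipa intron at -25.8 kb, had 64.6, 24.6, 40 and 67.95 tags in IL-33 libraries and 51.3, 58.4, 45.6 and 55.5 in vehicle libraries, with overlapping groups and a log2 change of -0.19 (-0.86 to 0.47). The peak at 32.9 kb, between the risen peaks at 30.2 and 39.6 kb, averaged 45.3 ± 16.8 tags with IL-33 and 45.5 ± 9.24 with vehicle (SD, n = 4 each), a log2 change of -0.08 (-0.74 to 0.59). Peaks at 10.5 and 85.0 kb had log2 changes of 0.53 and 0.43 with all libraries as deposited. The first passed without IL-33 library 2 and under all 3 rescalings run, and the second without IL-33 library 2 and with TMM. After median-ratio scaling 12 Ch25h peaks rose, 2 of the added 3 lying in its exon at 0.309 and 0.688 kb.

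**Figure D2:**
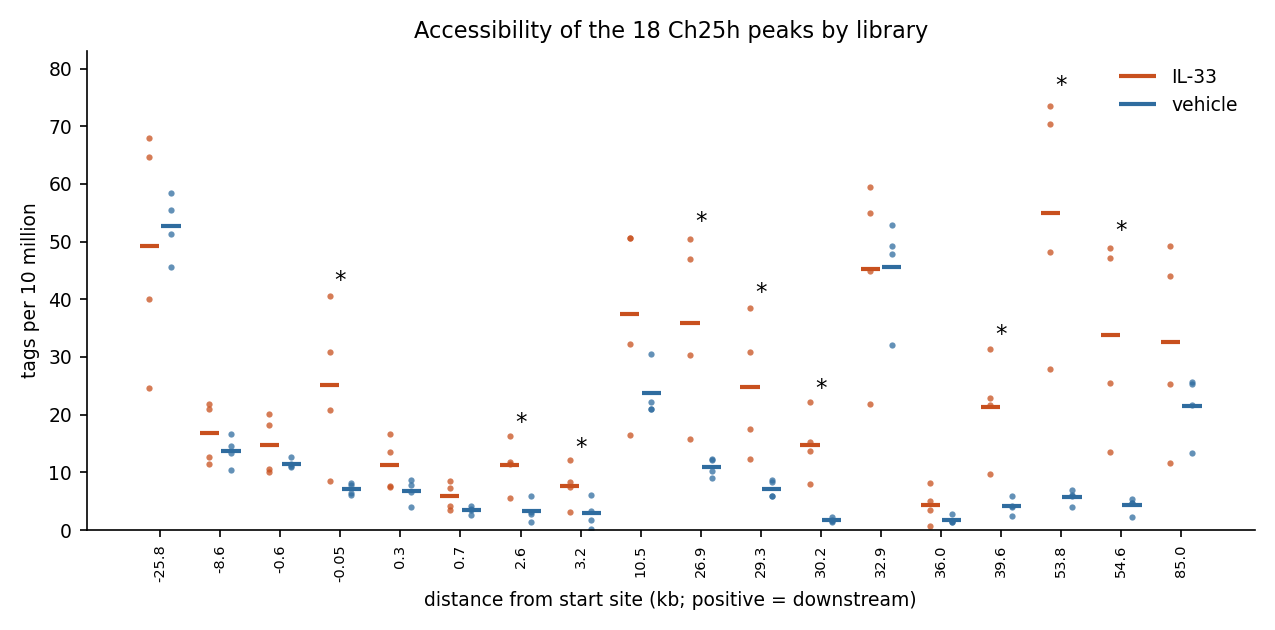
Tags per 10000000 in each library at the 18 Ch25h peaks, ordered and evenly spaced by distance from the start site in kb (not to scale). Points are libraries, horizontal lines are group means (n = 4 each), IL-33 is left of vehicle, and an asterisk marks a limma adjusted p under 0.05. The 9 marked peaks include the start site and the pair at 53.8 and 54.6 kb, while the peaks at -25.8 and 32.9 kb have overlapping groups.

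Of the exporters, Abca1 rose at 3 of 34 tested peaks (8.82%, beside 8.53% of all tested peaks) and Abcg1 fell at 2 of 21 (9.52%, beside 4.99%). Abca1, which moves cholesterol to lipid-poor apolipoproteins, had 35 peaks. Its intron 1 peak at 9.20 kb (chr4:53150566-53150833) had 49.7, 21.6, 41.7 and 46.4 tags in IL-33 libraries, against 7.42, 9.38, 6.16 and 10.3 in vehicle libraries. Every IL-33 library exceeded every vehicle library, with a log2 change of 2.07 (1.41 to 2.73, limma adjusted p = 5.37e-08). In intron 5 the peak at 40.9 kb (chr4:53118904-53119121) had 11.2, 9.67, 8.41 and 15.9 tags with IL-33 and 2.69, 5.02, 1.71 and 1.81 with vehicle, a log2 change of 1.69 (limma adjusted p = 1.78e-05). The weak peak at 41.3 kb (chr4:53118406-53118720) had 7.01, 3.18, 7.01 and 11.3 tags with IL-33 and 3.58, 2.11, 1.6 and 0.56 with vehicle. Its groups overlapped, its log2 change was 1.41 (limma adjusted p = 0.00061), and without IL-33 library 3 or 4 its mean was too low to be tested.

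The Abca1 promoter (chr4:53159852-53160111) was among the most open start sites of the 9 genes and did not pass the test. It had 112, 43.2, 79.6 and 106 tags in IL-33 libraries and 105, 119, 84.8 and 107 in vehicle libraries, a log2 change of -0.36 (-1.03 to 0.30). The most open Abca1 peak, in intron 5 at 33.0 kb, had 180, 81.8, 145 and 189 tags with IL-33 and 125, 153, 118 and 123 with vehicle, and its groups also overlapped (log2 change 0.14). After median-ratio scaling 13 Abca1 peaks rose and 2 fell, and without IL-33 library 2, 11 rose and none fell.

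Abcg1, which exports cholesterol to mature lipoprotein particles, had 22 peaks and fell at a pair 8 bases apart in intron 1. The peak at 3.08 kb (chr17:31060632-31060918) had 12.6, 5.31, 11.2 and 14.5 tags in IL-33 libraries, against 29.6, 20.5, 16.4 and 28.7 in vehicle libraries. Its neighbour at 3.39 kb (chr17:31060927-31061248) had 20.01, 7.43, 9.55 and 17.2 tags with IL-33 and 33.5, 29.9, 25.3 and 24.1 with vehicle. In both peaks every IL-33 library lay below every vehicle library. The log2 changes were -1.09 (limma adjusted p = 0.0136) and -1.08 (limma adjusted p = 0.014). These calls were close to the threshold: the first was lost without vehicle library 1 (limma adjusted p = 0.0948) or 4 (0.0836), and the second without IL-33 library 3 (0.101), vehicle library 1 (0.0829) or vehicle library 2 (0.0580).

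The intron peak at 17.1 kb also had every IL-33 library below every vehicle library, with means of 32.8 ± 10.2 tags with IL-33 and 56.9 ± 7.302 with vehicle (SD, n = 4 each), and did not pass (log2 change -0.82, limma adjusted p = 0.0943). It passed as a fall without IL-33 library 4 (limma adjusted p = 0.0367) and after median-ratio scaling (log2 change -0.71, limma adjusted p = 0.00251). The Abcg1 promoter peak (chr17:31057564-31057829) had 21.9, 12.5, 16.2 and 15.6 tags with IL-33 and 26.5, 27.9, 18.1 and 28.7 with vehicle (log2 change -0.58, limma adjusted p = 0.3). The most open peak, at -19.1 kb, had 113, 56, 89.4 and 115 tags with IL-33 and 77.5, 80.1, 62.3 and 78.4 with vehicle, with overlapping groups and a log2 change of 0.27. After median-ratio scaling 6 Abcg1 peaks fell and 2 rose.

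Lpl and Plin2 each rose only far from the start site among their tested peaks. Lpl had no peak in the promoter class. A pair 22 bases apart rose downstream of the gene, toward Slc18a1, which lay 131 kb past its end. At 45.8 kb from the start (chr8:68926262-68926491) there were 48.4, 15.8, 27.5 and 46.4 tags in IL-33 libraries, against 4.73, 9.91, 7.87 and 6.84 in vehicle libraries. At 46.1 kb (chr8:68926514-68926872) there were 28.6, 12.6, 23.2 and 38.8 tags with IL-33 and 4.09, 6.47, 5.36 and 4.05 with vehicle. Neither peak's groups overlapped, and the log2 changes were 1.98 (limma adjusted p = 2.22e-07) and 2.05 (limma adjusted p = 7.55e-08). The peak in the 5′ UTR at the Lpl start averaged 8.75 ± 2.97 tags with IL-33 and 6.69 ± 1.46 with vehicle (SD, n = 4 each) and did not pass. The most open Lpl peak by mean over the 8 libraries, at 71.4 kb, had 25.9, 7.55, 16.9 and 40.1 tags with IL-33 and 24.9, 28.7, 21.4 and 26.5 with vehicle (log2 change -0.37).

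Plin2 rose at -20.4 kb (chr4:86690269-86690552), with 31.7, 18.8, 20.4 and 38.03 tags in IL-33 libraries, against 12.7, 10.3, 5.7 and 6.42 in vehicle libraries. The groups did not overlap (log2 change 1.52, limma adjusted p = 0.000164). Its promoter had 29.5, 11.2, 19.1 and 27.9 tags with IL-33 and 36.1, 25.2, 24.9 and 29.9 with vehicle, with overlapping groups (log2 change -0.46). The intron 1 peak at 0.597 kb, the most open outside the promoter by mean over the 8 libraries, had a log2 change of 0.19. A weaker intron 1 peak at 1.28 kb averaged 4.99 ± 2.43 tags with IL-33 and 9.19 ± 2.58 with vehicle (SD, n = 4 each) and did not pass as deposited (limma adjusted p = 0.105). It passed as a fall without IL-33 library 4 (limma adjusted p = 0.0248) and after median-ratio scaling (log2 change -0.72, limma adjusted p = 0.021).

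**Figure D3:**
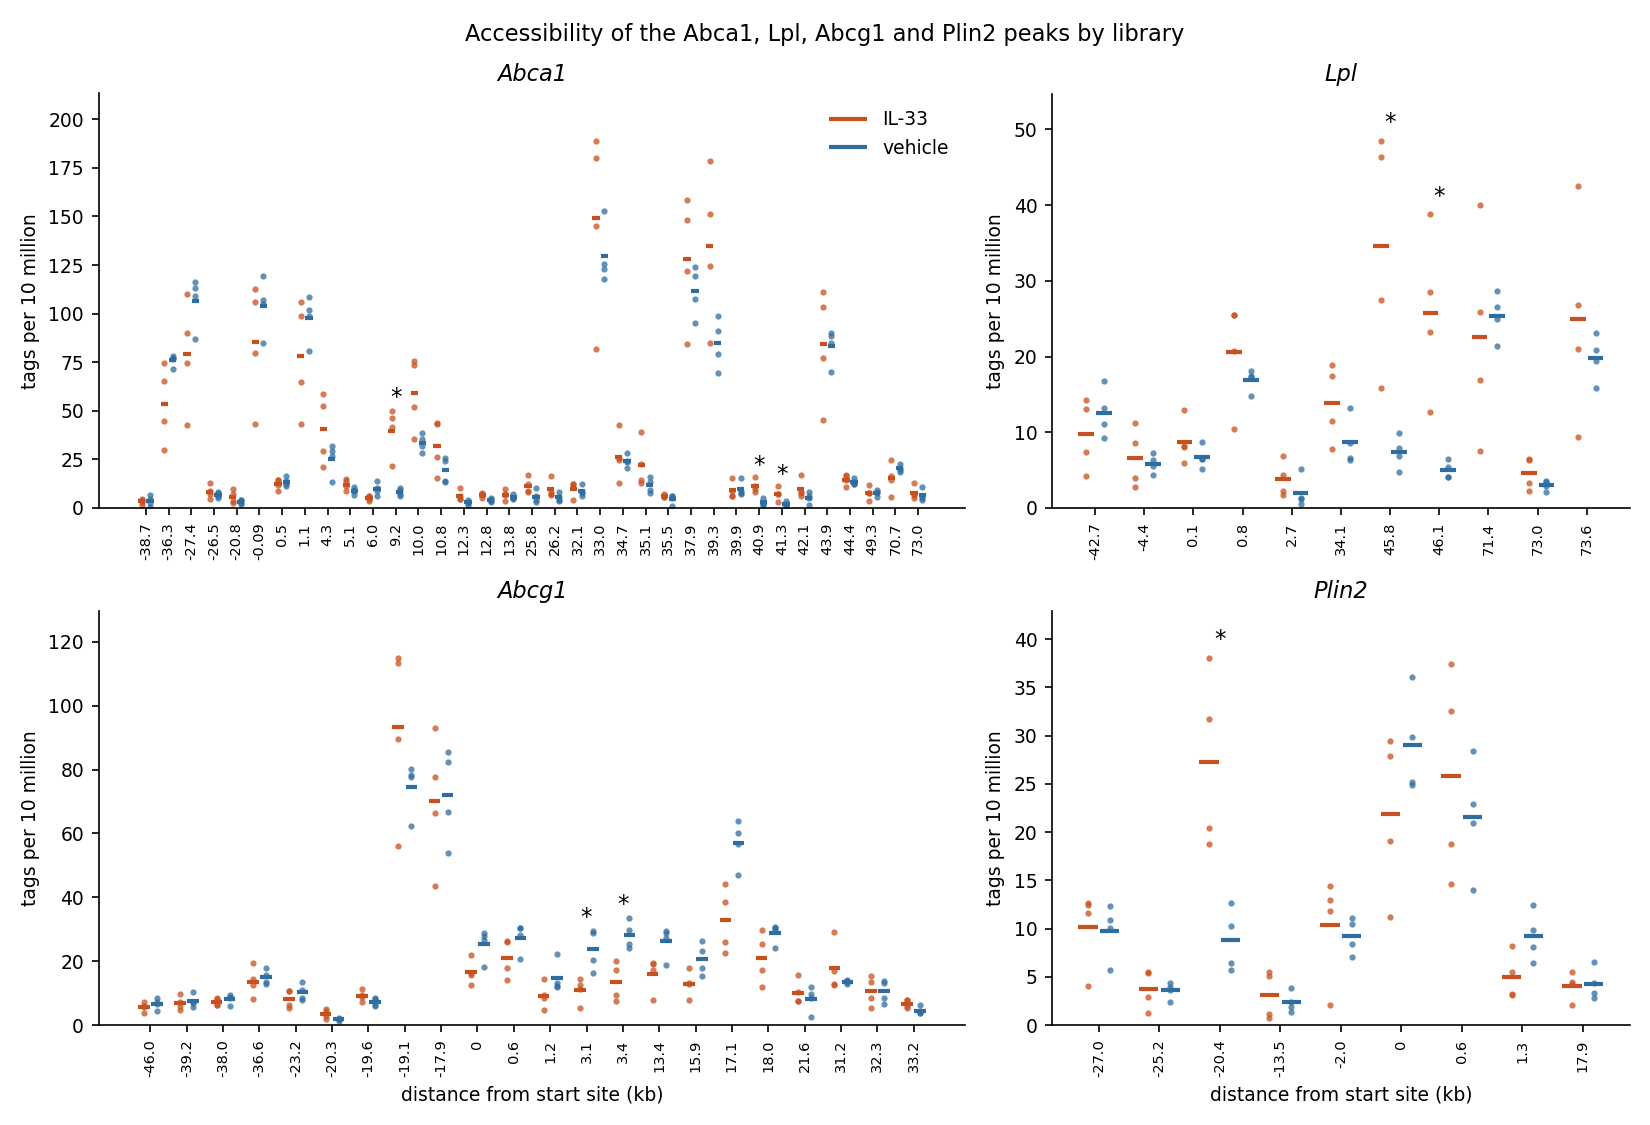
Tags per 10000000 in each library at every peak of Abca1, Lpl, Abcg1 and Plin2, evenly spaced in order of distance from the start site in kb. Points are libraries, horizontal lines are group means (n = 4 each), IL-33 is left of vehicle, and an asterisk marks a limma adjusted p under 0.05. Marked peaks rise at Abca1 (3), Lpl (2) and Plin2 (1) and fall at Abcg1 (2).

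At Apoe, encoding the main lipoprotein component made by glia, no peak passed. The start-site peak (chr7:19699014-19699368) had 10.96, 6.72, 6.11 and 8.87 tags in IL-33 libraries and 13.9, 11.1, 8.21 and 18 in vehicle libraries, with overlapping groups and a log2 change of -0.56 (-1.23 to 0.10). The most open peak assigned to Apoe lay at -2.41 kb in the 3′ UTR of the adjoining gene, Tomm40, and had 20.5, 12.7, 18.3 and 18.6 tags with IL-33 and 24.4, 25.2, 14.9 and 27.9 with vehicle (log2 change -0.36).

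Among the regulators no peak passed either, and Nr1h3, like Lpl, had no peak in the promoter class. At Nr1h3 the peak at -1.70 kb had 34.6, 18.3, 30.8 and 42.5 tags in IL-33 libraries, against 18.7, 18.6, 12.1 and 21.3 in vehicle libraries. Only IL-33 library 2 fell inside the vehicle range, and the log2 change was 0.76 (0.10 to 1.42, limma adjusted p = 0.129). Without that library it was 0.99 and passed (limma adjusted p = 0.006). The second Nr1h3 peak, at 0.311 kb in intron 1, had 24.5, 12.9, 22.9 and 28.02 tags with IL-33 and 34.5, 28.5, 24.9 and 29.7 with vehicle, a log2 change of -0.44.

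The Nr1h2 promoter had 67.4, 24.99, 42.5 and 58.4 tags with IL-33 and 57.8, 57.9, 43.2 and 68.1 with vehicle (log2 change -0.30), and the peak at 0.413 kb had 46.5, 33.7, 41.9 and 52.4 tags with IL-33 and 32.8, 35.5, 28.96 and 33.9 with vehicle (log2 change 0.39). Groups overlapped in both. The Srebf2 promoter had 123, 65.8, 106 and 119 tags with IL-33 and 119, 129, 91.1 and 124 with vehicle, also overlapping (log2 change -0.19, -0.85 to 0.48). In Srebf2 intron 1 at 18.3 kb a weak peak had 6.76, 5.31, 5.73 and 7.99 tags with IL-33 and 3.45, 3.04, 2.51 and 4.18 with vehicle. There every IL-33 library exceeded every vehicle library and the call missed the threshold (log2 change 0.77, limma adjusted p = 0.121), while without IL-33 library 2 it passed (0.0181). A Srebf2 intron 1 peak at 1.49 kb was left out of the test as too low. It had 7.9, 4.24, 3.69 and 4.82 tags with IL-33 and 1.15, 0.53, 0.8 and 2.37 with vehicle, without overlap.

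Tags summed over all peaks of a gene differed most at Ch25h among the 9 genes, and that difference missed the threshold as deposited. Ch25h sums were 589, 216, 380.4 and 605 tags in IL-33 libraries, against 240.2, 233, 196 and 242 in vehicle libraries. Only IL-33 library 2 lay within the vehicle range. Means were 447 ± 185 with IL-33 and 228 ± 21.8 with vehicle (SD, n = 4 each), a log2 change of 0.85 (0.30 to 1.40, limma adjusted p = 0.0736). After median-ratio scaling it was 0.95 (limma adjusted p = 7.14e-05), and without IL-33 library 2 it was 1.16 (limma adjusted p = 2.03e-07). Ch25h took 0.0152% to 0.0197% of a library's peak tags with IL-33 and 0.00834% to 0.00940% with vehicle.

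Lpl sums were 211, 81.7, 147 and 264 tags with IL-33, against 115, 112, 103 and 123 with vehicle. IL-33 library 2 was the lowest of all 8 and the other 3 IL-33 libraries were the highest. The log2 change was 0.49 (-0.06 to 1.04, limma adjusted p = 0.62), and it passed after median-ratio scaling (0.59, limma adjusted p = 0.00375) and without IL-33 library 2 (0.81, limma adjusted p = 0.000933). The sums of the other 7 genes had overlapping groups, and Nr1h3 had the ordering seen at Lpl, with IL-33 library 2 lowest and the other 3 highest. Abca1 averaged 1200 ± 391 tags with IL-33 and 1066 ± 125 with vehicle, and Abcg1 417 ± 118 with IL-33 and 492 ± 64.7 with vehicle (SD, n = 4 each). Log2 changes of these 7 ran from -0.27 at Abcg1 to 0.13 at Nr1h3.

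In all, 0 of 9 gene sums passed in either direction in the limma fit over 16386 genes, where 1.46% rose and 1.23% fell, and 1 of the 9 had an unadjusted p under 0.05. Of the other tests run, edgeR on recovered reads passed 0 with library totals and 4 rises with TMM scaling (Abca1, Ch25h, Lpl and Plin2), and limma after median-ratio scaling passed 3 rises (Abca1, Ch25h and Lpl, where 11.8% of genes rose and 15.6% fell). Over all 16386 genes edgeR passed 268 rises and 142 falls with library totals, and 2454 rises and 1886 falls with TMM. Without IL-33 library 2, limma passed 2 rises (Ch25h and Lpl, where 7.12% of genes rose and 2.01% fell). The median log2 change over all genes was -0.17 as deposited and -0.07 after median-ratio scaling. Sums of promoter peaks alone (0.818% of genes rose and 0.615% fell) passed in limma for no gene that had such peaks, and Lpl and Nr1h3 had none. Sums of the other peaks alone (3.24% and 2.17%) passed for none of the 9 genes in limma. In each case 1 gene, Ch25h, had an unadjusted p under 0.05 (limma adjusted p = 0.0925 for promoter tags and 0.0513 for the others), and edgeR was not run on these sums.

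**Figure D4:**
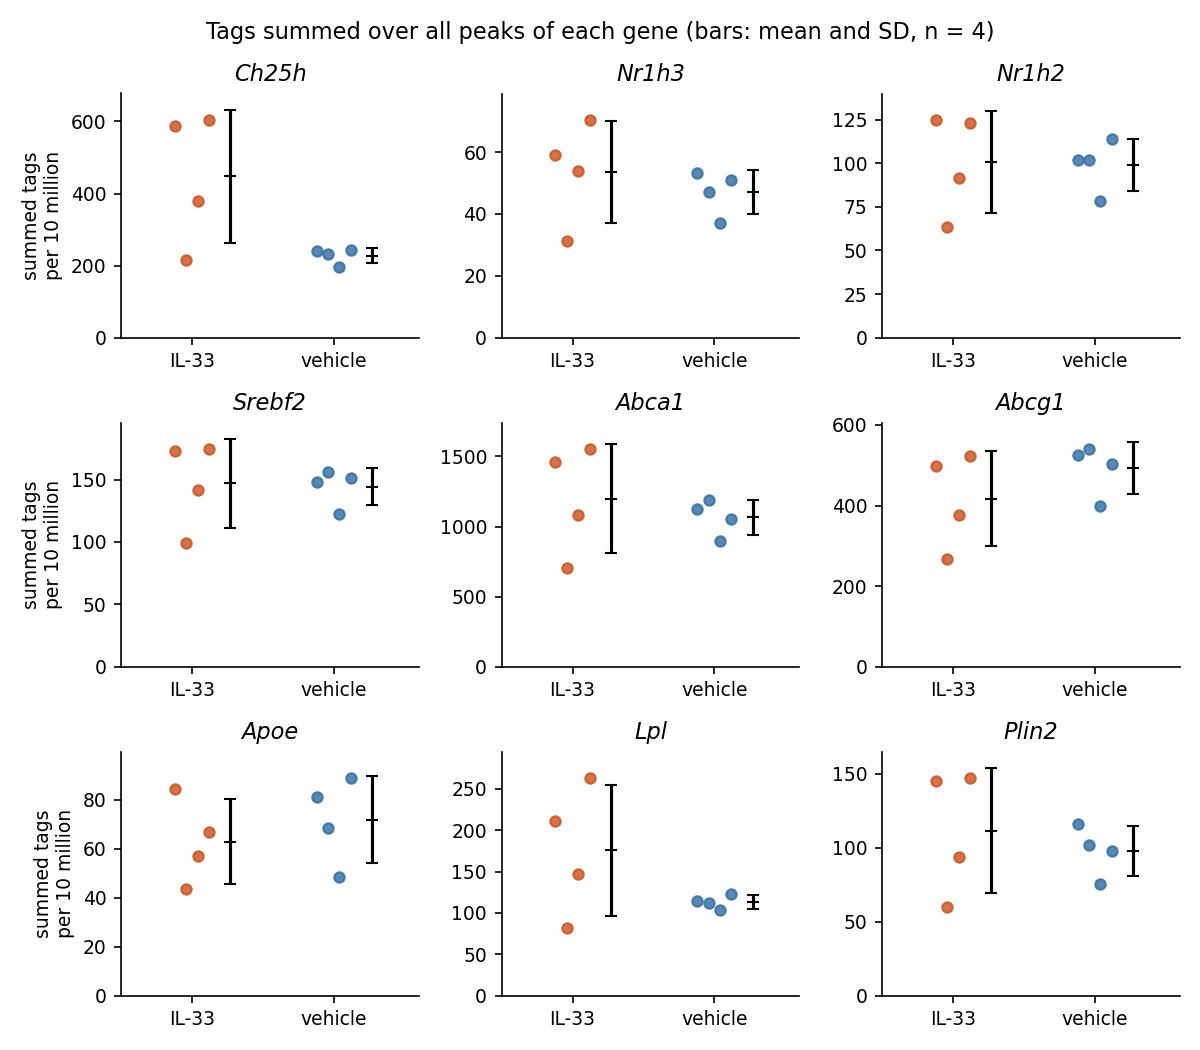
Tags per 10000000 summed over all peaks of each gene, with 1 point per library, IL-33 left and vehicle right. Bars give the mean and SD (n = 4 each), and each vertical axis starts at 0 with its own scale. At Ch25h, Lpl and Nr1h3, 3 IL-33 libraries lie above all vehicle libraries and IL-33 library 2 does not.

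Within each library, tags outside the promoter were then set against promoter tags, a ratio that the scaling of a library leaves nearly unchanged. Of the 7 genes with both kinds of peak, 4 shifted toward tags outside the promoter with IL-33 and none the other way, where 26.5% of 8059 genes shifted that way and 7.42% the other way (limma adjusted p under 0.05). At Abca1 the log2 ratio was 3.53, 3.78, 3.57 and 3.71 in IL-33 libraries and 3.22, 3.11, 3.19 and 3.08 in vehicle libraries, a change of 0.50 (limma adjusted p = 0.00252). At Plin2 it was 1.80, 1.73, 1.72 and 1.92 with IL-33 and 1.05, 1.43, 0.90 and 1.06 with vehicle, a change of 0.68 (limma adjusted p = 0.00112). In both genes the groups did not overlap.

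Nr1h2 changed by 0.54 (limma adjusted p = 0.0115) without overlap and Srebf2 by 0.67 (limma adjusted p = 0.0066) with overlap at vehicle library 3. The same 4 genes passed when any library was left out. The median change over all genes tested was 0.13. Ch25h had a ratio of 3.07, 3.06, 3.30 and 3.32 with IL-33 and 3.22, 3.31, 3.05 and 3.13 with vehicle, a change of 0.01 (-0.23 to 0.25). Abcg1 (0.24) and Apoe (-0.07) did not pass. With a promoter defined as any peak within 1 kb of the start site, Abca1, Srebf2 and Plin2 passed again, Nr1h3 passed as well (1.03, limma adjusted p = 3.58e-05), and Nr1h2 did not (-0.09).

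**Figure D5:**
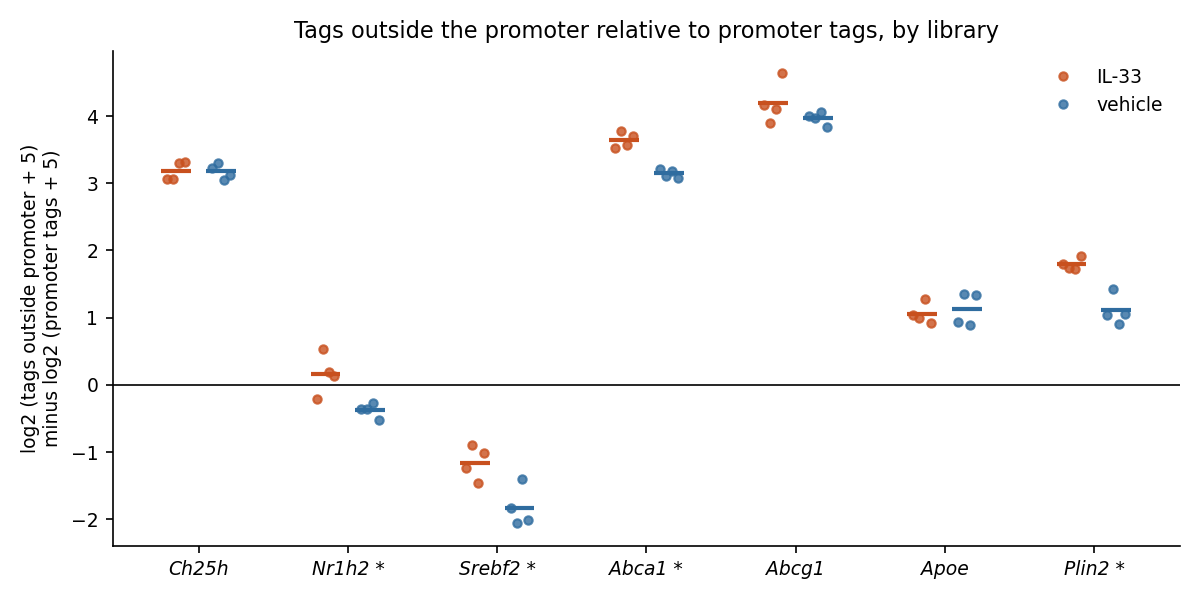
Log2 of tags outside the promoter plus 5 minus log2 of promoter tags plus 5, by library, for the 7 genes with both kinds of peak. Points are libraries, lines are group means (n = 4 each), IL-33 is left of vehicle, and an asterisk after a name marks a limma adjusted p under 0.05. Abca1, Plin2 and Nr1h2 have separate groups, Srebf2 overlaps at 1 vehicle library, and Ch25h overlaps throughout.

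The start-site peaks ranged widely in openness when expressed per kb of peak. From high to low in vehicle libraries, Srebf2 had 408 ± 103 tags per kb with IL-33 and 455 ± 66.4 with vehicle, Abca1 328 ± 121 with IL-33 and 401 ± 55.2 with vehicle, and Nr1h2 207 ± 79.8 with IL-33 and 242 ± 43.7 with vehicle (SD, n = 4 each). Plin2, Nr1h3, Abcg1, Apoe and Lpl followed with IL-33 means of 91.7, 83.9, 62.2, 23 and 36.3 tags per kb and vehicle means of 121, 112, 95.1, 36.1 and 27.8. In vehicle libraries neighbours in this order overlapped in range, except that Abca1 lay above Nr1h2, Nr1h2 above Plin2 and Abcg1 above Apoe in every library. Ch25h was the fourth with IL-33, at 97.2 ± 52.97 tags per kb, and the last with vehicle, at 27.4 ± 4.15 (SD, n = 4 each). With the genes ordered instead by their IL-33 means, the ranges of all neighbours overlapped in IL-33 libraries.

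Among peaks within 50 kb of the 9 start sites that belonged to other genes, 4 of 48 tested rose (8.33%, beside 8.53% of all tested peaks) and none fell in limma. They were a Nectin2 intron peak near Apoe (1.51), a Lipa intron peak near Ch25h (1.07), a Spib intron peak near Nr1h2 (2.05) and an Acp2 intron peak near Nr1h3 (1.36), with limma adjusted p from 6.99e-08 to 0.0159. The Spib peak had 16.2, 6.48, 10.8 and 10.9 tags in IL-33 libraries, against 2.56, 1.85, 2.51 and 0.42 in vehicle libraries. Spib encodes an ETS-family transcription factor. The peaks searched numbered 16 tested near Apoe, 11 near Nr1h3, 7 near Nr1h2, 6 near Ch25h, 4 near Srebf2 and 1 near each of the other 4 genes.

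Across 7 wider lists of the pathway, counts are given beside the same background of 8.53% risen and 4.99% fallen, and the median log2 change of a list's tested peaks beside -0.14 over all peaks. The 7 medians ran from -0.25 for lipase partners to -0.0049 for oxysterol enzymes. For LXR partners, corepressors and further targets, 6 of 169 tested peaks rose and 8 fell (median -0.13). Rxrg, an RXR partner of the liver X receptors, rose at 3 of 11 tested peaks, among them one at -9.16 kb (27.9, 11.1, 20 and 26.5 tags with IL-33 and 2.3, 1.32, 4.67 and 0.28 with vehicle, log2 change 2.88, limma adjusted p = 4.07e-15). Mylip, whose product targets the LDL receptor for degradation, rose at 1 of 25 tested peaks and fell at 1, at 53.6 kb (6.63, 7.19, 5.22 and 9.25 tags with IL-33 and 37.6, 33.4, 19.6 and 35.2 with vehicle, log2 change -1.97, limma adjusted p = 2.81e-07).

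For the SREBP pathway and cholesterol synthesis, 4 of 79 tested peaks rose and 2 fell (median -0.18). Both falls were at Insig2, whose product retains SREBP in the endoplasmic reticulum and which rose at 1 of its 7 tested peaks (1.34). The sterol oxidase gene Msmo1 rose at 1 of 4 (1.32). For lipoprotein receptors and uptake, 17 of 170 rose and 12 fell (median -0.19). Cd36, a scavenger receptor for oxidised lipoproteins and fatty acids, rose at all 4 of its tested peaks and in summed tags, and was the only gene of the 7 lists whose sum passed. Its sums were 177 ± 78.2 tags with IL-33 and 39.6 ± 5.1 with vehicle (SD, n = 4 each), and they rose by 1.91 on the log2 scale (limma adjusted p = 8.35e-09). The receptor gene Lrp1 rose at 4 of 27 tested peaks (2.04 at the one with the smallest p), and Scarb2 rose at 3 of 19 (2.23) and fell at 2.

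For lipase partners and fatty acid handling, 6 of 88 rose and 5 fell. The log2 changes that follow are those of a gene's peak with the smallest p. Acsl1, encoding a fatty acyl-CoA synthetase, rose at 1 of 12 tested peaks and fell at 1 (2.44), the hepatic lipase gene Lipc rose at 2 of 26 and fell at 1 (2.29), and the fatty acid carrier gene Fabp5 fell at 1 of 7 (-1.47). For lysosomal transport and sterol exchange, 12 of 166 rose and 13 fell (median -0.24). Of 3 genes encoding sterol transfer proteins, Gramd1a rose at 5 of 15 tested peaks (2.15), Stard3 fell at 2 of 5 (-1.77), and Gramd1b rose at 2 of 28 and fell at 2 (-1.61). For esterification and lipid droplets, 6 of 68 rose and 2 fell (median -0.04). The intronic peak of the monoglyceride lipase gene Mgll had 67.6, 35.7, 55.7 and 59.8 tags with IL-33 and 1.54, 1.98, 1.03 and 0 with vehicle (log2 change 4.66, limma adjusted p = 7.74e-39), 5 of 14 tested Mgll peaks rose, and the triglyceride lipase gene Pnpla2 fell at 1 of 5 (-1.32). The lipase coactivator gene Abhd5 rose at 1 of 3 (0.996). For the other oxysterol enzymes and their receptor Gpr183, 0 of 42 tested peaks passed in limma as deposited. After median-ratio scaling 5 rose and 1 fell (15.3% and 10.8% of all tested peaks did). Of these 42, 3 had an unadjusted p under 0.05, and edgeR on recovered reads passed 1 rise with library totals and 7 rises with TMM scaling. Over all 94480 tested peaks edgeR passed 8256 rises with library totals and 16138 with TMM.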

How the data were processed

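ATAC-seq was run on cortical microglia isolated with a 22% Percoll gradient and flow cytometry, per the labels' protocols. Per the file headers, the authors counted tags over each reproducible peak with HOMER against mm10, capping each position at 3 tags, and deposited them as a signal per 10000000 tags. The submitters' processing notes also name Bowtie2 and DESeq2. Trimming, duplicate removal, transposase offset and versions are not given in the sources used here. The authors' deposited score of each merged peak was not used. Peaks were called per group and merged, per the file headers. HOMER's promoter class defined promoter peaks, and positions are on mm10.

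All deposited values were whole multiples of 1 read within 0.006 tags (100% of values), 1 read being worth 0.114 to 0.139 tags, so recovered reads could be tested as an alternative. Floors of 3 reads (0.342 to 0.418 tags) cover counting error only. No other columns of sample values were left aside. Libraries are replicates by treatment and column number. For peaks and gene sums as deposited, limma p-values rest on a spread between mice pooled over all peaks or all sums. They do not measure the spread of a single peak or gene.

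Tests used limma 3.58.1 (R 4.3.3) on log2(tags + 1.15), a pseudocount of 10% of the median peak level (11.5 tags), after leaving out the lowest 10% of peaks, with 2-sided Benjamini-Hochberg adjusted p over 94480 peaks. limma shrank every peak to a standard error of 0.34, and every gene sum to 0.28, so the log2 changes share these errors. Gene sums and ratios used a pseudocount of 5. A fold on this scale understates changes of low peaks. The fit was tested on simulated data. Alternatives were a 5 times larger pseudocount, no filter, median-ratio and quantile scaling, a mean trend, edgeR 4.0.16 with TMM or library totals on recovered reads, leaving out each library, sums within 100 kb and promoters within 1 kb.

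The genes, lists and tests were chosen with earlier results of these data known. Every risen or fallen peak of a gene was named (above 6, the 3 largest), with its peak of smallest p, passing or not. Its strongest promoter peak and strongest other peak were named as well. From each wider list the genes with the 3 smallest p among passing peaks were named, except some that are not reported here. The other risen Ch25h peaks, the Ch25h peaks at -0.584, 10.5, 32.9 and 85.0 kb, the Abcg1 peak at 17.1 kb, the Lpl peak at 0.104 kb, the Srebf2 peak at 1.49 kb and the Plin2 peak at 1.28 kb were named after their values were seen.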

Additional observations from a re-analysis of the deposited data

Results flagged for a closer look

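At the most open Abcg1 peak, at -19.1 kb, vehicle library 3 stood apart from the other vehicle libraries. It had 62.3 tags (62.25 as deposited), against 77.5, 78.4 and 80.1 in the other 3, a gap of 0.857 of the group's range, above Dixon's 95% limit for 4 values. This was 1 of 76 groups of 4 examined, and chance gives about 1 in 20, so a single such group is fewer than chance alone would give.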

How the results depend on the processing

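Scaling and IL-33 library 2 moved the counts most among the alternatives run. Signs were followed for 29 of the named peaks and the 9 gene sums, and none of these that passed as deposited changed sign. Of these 38, 10 that did not pass, each with a log2 change under 0.37 in size, changed sign under at least 1 alternative. Outside this set, the Ch25h peak at 32.9 kb also changed sign (0.03 after median-ratio scaling). Peaks of the 9 genes that rose numbered 15 as deposited, 34 after median-ratio scaling, 28 after quantile normalization and 35 in edgeR with TMM, while falls numbered 2, 9, 9 and 10 in the same order. With no filter on low values 16 rose and 2 fell, beside 10315 and 5268 of 104981 peaks over the whole table. Rising gene sums numbered 0 as deposited, 3 after median-ratio scaling (Abca1, Ch25h, Lpl), 4 after quantile normalization (Ch25h, Lpl, Nr1h3, Plin2) and 4 in edgeR with TMM. Falling sums numbered 0 as deposited and 1 after quantile normalization (Abcg1). Over the whole table, rises and falls were 8058 and 4714 peaks as deposited, 14411 and 10226 after median-ratio scaling, 12648 and 12357 after quantile normalization and 16138 and 11145 with TMM. For gene sums they were 240 and 202 as deposited, 1934 and 2556 after median-ratio scaling, 2138 and 2128 after quantile normalization and 2454 and 1886 with TMM. The cause of these shifts was not tested. Of the peaks named with each library's values, the Nr1h3 peak at -1.70 kb and the Srebf2 peak at 18.3 kb passed as rises under all 3 of these rescalings, as did the Abcg1 peak at -19.1 kb, the Nr1h2 peak at 0.413 kb passed as a rise after median-ratio scaling and with TMM, and with TMM alone the Abca1 promoter fell (-0.22) and the Abca1 peak at 33.0 kb rose (0.27). Leaving out 1 library at a time gave 14 to 28 rising peaks (28 without IL-33 library 2), 0 to 4 falling peaks (0 without vehicle library 1 and 4 without IL-33 library 4), 0 to 2 rising sums (Ch25h and Lpl without IL-33 library 2), 0 falling sums and 4 genes whose promoter and other tags moved apart. No paired analysis was possible because the replicate numbers in the columns are not tied to mice and the labels number the 8 mice without a pair across treatments. With 4 libraries per group and 1 of low enrichment, the limma interval of a peak's log2 change in the deposited values spans 0.66 to either side. A peak absent from the authors' list was not measured.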

Other observations

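By the summed tags of all peaks, the genes whose profile over the 8 libraries lay nearest to that of Ch25h were the scavenger receptor gene Marco (Pearson r = 0.997 across libraries), Clmp (0.997) and Atp1b4 (0.996). These are descriptions over 8 libraries that share treatment and enrichment, and nothing was tested on them. Marco sums were 754, 330.3, 527 and 797 tags in IL-33 libraries and 378, 341, 300.2 and 348 in vehicle libraries. Peaks of the 9 genes together took 0.110% to 0.113% of a library's peak tags with IL-33 and 0.0913% to 0.0946% with vehicle, a narrow range within each group in which IL-33 library 2 lay with the other IL-33 libraries.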
